A study of Mus musculus with 16 samples.

Results

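The levels of 10 fat cell genes were followed in mouse colon RNA. They were chosen by name, as the array features whose platform gene symbol is Adipoq, Lpl, Plin1, Thrsp, Retn, Lep, Cidec, Fabp4, Lipe or Pck1. These genes and the gene lists below were chosen with earlier results of these data known, so their counts are no independent test. The 10 genes had 16 of the 44290 features in the deposited table, 6 of them with 1 feature and 4 with more, and they made up 10 of the 25892 genes and unnamed features that were tested. They are read as a measure of fat tissue in each colon sample and of change in fat-making genes.

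White fat cells store triglyceride in 1 large lipid droplet. Lipoprotein lipase in the capillaries frees fatty acids for uptake, lipogenic enzymes make more inside the cell, perilipin and CIDE proteins coat and enlarge the droplet, and lipases release the fatty acids again during fasting. Fat cells also secrete adiponectin, leptin and, in the mouse, resistin. The colon wall itself holds few fat cells, but the mesentery and the fat that lies along the serosa are made of them, and the submucosa can hold some. Genes such as Adipoq therefore report mainly on fat tissue in a gut sample, whereas Lpl, Fabp4, Thrsp and Pck1 are also used by other cells, among them macrophages, muscle, liver and gut epithelium.

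The mice were C57BL/6J and Il10-/- (B6.129P2-Il10tm1Cgn) males. The latter carry no working interleukin 10 gene, whose product is a cytokine that holds back the immune response to gut bacteria. All mice were 28 to 35 days old at the start, received Enterococcus strains and a complex intestinal flora by mouth, and were fed for 6 weeks on CO (AIN-76A with corn oil), OA (oleic acid), EPA (eicosapentaenoic acid) or AA (arachidonic acid). Each diet held 5% fat. In the OA, EPA and AA diets 1% corn oil and 3.7% of the named fatty acid were added to a fat-free AIN-76A base. Every group was given the amount of food that Il10-/- mice ate, and was sampled after 77 days of age, following a 14 hour fast, 2 hours of food and 2 hours without. The age field of the C57BL/6J samples reads 5 weeks. Each of the 8 groups had 6 mice and 2 arrays, with colon RNA of 2 to 3 mice mixed in equimolar amounts on each array. Nothing in the labels says that the pools of a group held different mice, so the p-values refer to the spread among these arrays alone. Per the labels, the histology sections were scored down to the omental fat, and nothing is said of trimming fat from the tissue taken for RNA. For Il10-/- OA pool 1 the title says OA and the source name EPA, and it was kept as OA.

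Levels are log2 ratios of the colon pool to a common reference RNA mixed from several organs (small and large bowel, liver and kidney) and whole fetuses of healthy Swiss mice. A level of 0 means as much signal as in that mix, and levels of different genes cannot be set against each other. The median of an array was -0.019 to -0.001, over 37005 to 40827 features with values. Genes of reference tissues were far below 0, with Umod of kidney at -2.83 and Ttr of liver at -3.51 on average. The colon genes Cdh17 (1.19), Cdx2 (1.27), Car4 (1.07) and Slc26a3 (1.03) were above 0 in C57BL/6J mice. The other 6 of 10 epithelial markers checked sat on every array at a value shared by 326 to 985 features. Such a value is called tied here, and it is named beside the genes that have it on some arrays. The Il10 feature gave more signal in the mutant (0.38 to 0.77) than in C57BL/6J mice (-0.32 to -0.05), and where it lies with respect to the targeted sequence is not known here, so it is no check of the genotype.

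A single array stood apart, and not for fat genes alone. C57BL/6J CO pool 2 had the lowest value of the 8 C57BL/6J arrays for 10 of the 10 adipocyte genes. The share of all genes that were lowest there is not given here, and the 10 genes varied together. Their mean there was -0.47, against 0.85 on C57BL/6J CO pool 1. Over 21 further fat cell genes the means were -0.53 and 0.05, while smooth muscle genes stood at 0.43 and 0.61 and mesothelial genes at -0.40 and -0.38. Endothelial genes were at -0.69 on this array, against -0.43 on pool 1 and within the Il10-/- range of -0.90 to -0.68. The 4 epithelial markers that are not tied had a mean of 1.13 on this array and 1.18 on pool 1. When this array alone stood for C57BL/6J CO, 8.06% of all genes were called between OA and CO, against 0.0154% with both pools. The tied value of this array was also the highest of the 16, at 0.61 against -0.06 to 0.13 elsewhere. Some results that rest on it are given with and without it, and the plot of genotype differences shows both fits for all 10 genes. Most list counts are given with it only.

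Promoter sequence was available for 8 of the 10 genes (RefSeq, GRCm38.p6, 250 bases before to 50 bases after the start), all but Lpl and Fabp4. The 4 printed here each hold a motif, shown in capitals. The motifs were CCAAT (the CCAAT box, a general promoter element), TTGCGCAA (a palindrome bound by C/EBP factors) and ACGTCA (the core of the cAMP response element), searched on both strands. The Adipoq promoter (chr16:23146286-23146585, plus strand) has 3 CCAAT boxes and the Thrsp promoter (chr7:97417501-97417800, minus strand) has 2. The Lep promoter (chr6:29059971-29060270, plus strand) has 1 TTGCGCAA and the Pck1 promoter (chr2:173152823-173153122, plus strand) 1 ACGTCA.
Adipoq: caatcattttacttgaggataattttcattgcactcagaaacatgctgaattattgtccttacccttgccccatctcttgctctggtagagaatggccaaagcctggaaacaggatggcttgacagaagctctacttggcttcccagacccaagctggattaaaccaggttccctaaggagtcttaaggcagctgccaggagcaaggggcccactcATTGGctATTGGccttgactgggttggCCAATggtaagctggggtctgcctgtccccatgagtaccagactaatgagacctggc
Thrsp: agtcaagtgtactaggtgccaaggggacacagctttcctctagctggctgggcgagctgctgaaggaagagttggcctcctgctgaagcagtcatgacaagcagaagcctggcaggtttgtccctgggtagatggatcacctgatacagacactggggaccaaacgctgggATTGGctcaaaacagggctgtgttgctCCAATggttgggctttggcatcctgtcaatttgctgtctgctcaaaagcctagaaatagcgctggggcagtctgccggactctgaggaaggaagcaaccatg
Lep: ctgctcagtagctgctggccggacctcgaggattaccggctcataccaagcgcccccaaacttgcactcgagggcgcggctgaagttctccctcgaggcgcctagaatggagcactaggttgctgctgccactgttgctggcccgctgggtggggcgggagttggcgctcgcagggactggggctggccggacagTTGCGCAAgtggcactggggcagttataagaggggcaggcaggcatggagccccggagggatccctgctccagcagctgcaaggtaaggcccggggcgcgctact
Pck1: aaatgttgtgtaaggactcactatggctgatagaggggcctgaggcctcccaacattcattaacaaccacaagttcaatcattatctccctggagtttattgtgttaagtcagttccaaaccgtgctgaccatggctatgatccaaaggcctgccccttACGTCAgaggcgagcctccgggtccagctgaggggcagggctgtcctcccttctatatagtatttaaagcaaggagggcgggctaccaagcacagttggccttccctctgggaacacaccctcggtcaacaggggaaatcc
CCAAT is in 37.4% of the 32851 promoters of the same length, ACGTCA in 7.51% and TTGCGCAA in 0.183%. None of these motifs was found in the promoters of Plin1, Retn, Cidec and Lipe, and neither TATAAA (13.6% of promoters) nor the DR1 repeat bound by PPAR factors (0.0396%) was found in any of the 8 genes. These matches describe the letters only.

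Fat cell genes were lower in the colon of Il10-/- mice than of C57BL/6J mice. Averaged over the 4 diets, 9 of the 10 genes fell in Il10-/- mice (adjusted p under 0.05, limma with Benjamini-Hochberg adjustment over all 25892 tests), and Lipe did not pass. Among all genes tested 8.12% were called lower, 9.14% higher and 17.3% in either direction. Since the 10 genes were chosen with earlier results of these data known, the contrast with these shares is a description only. The median difference of the 10 genes, Il10-/- minus C57BL/6J, was -0.92 on the log2 scale, against -0.01 over all genes. In pooled tissue, fewer fat cells and less RNA per fat cell cannot be told apart.

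**Figure D1:**
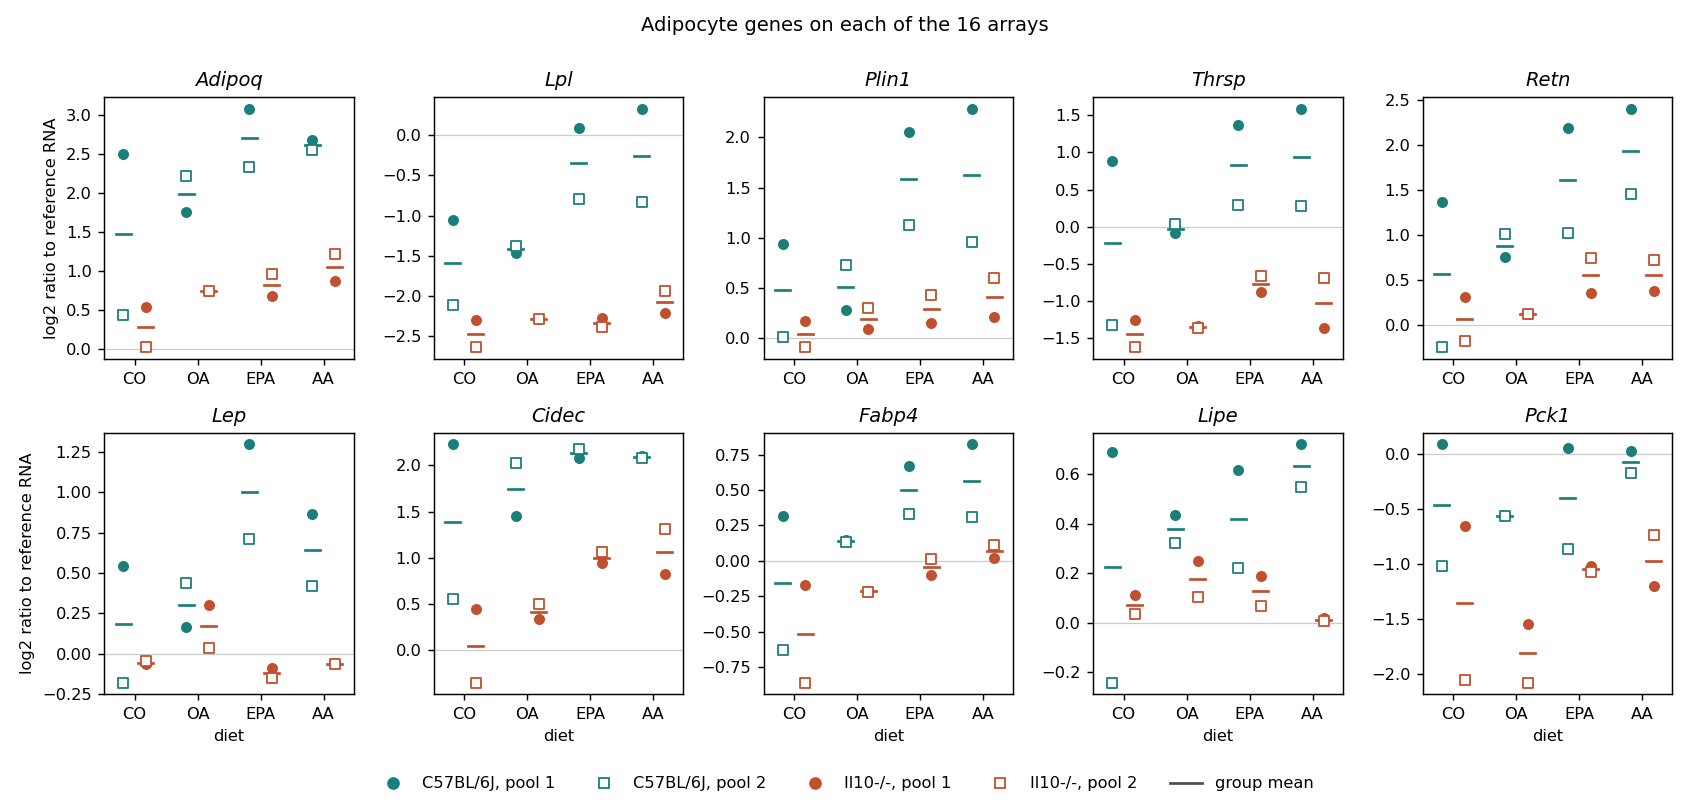
Log2 ratio to the reference RNA (vertical axis, a separate scale for each gene) of the 10 adipocyte genes on the 16 arrays, by diet. Filled circles are pool 1, open squares pool 2 and bars group means, with C57BL/6J in green and Il10-/- in orange. C57BL/6J CO pool 2 is the lowest C57BL/6J array in all 10 panels, and Pck1 has no value on C57BL/6J OA pool 1.

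Of the secreted hormones, Adipoq (adiponectin, made almost only by fat cells) is given first. Adipoq stood in C57BL/6J mice at 2.50 and 0.44 on CO (pool 1, then pool 2, as in the sentences that follow), 1.75 and 2.22 on OA, 3.08 and 2.33 on EPA, 2.68 and 2.55 on AA. Adipoq in Il10-/- mice stood at 0.54 and 0.03 on CO, 0.75 and 0.75 on OA, 0.68 and 0.97 on EPA, 0.88 and 1.23 on AA. All C57BL/6J arrays but CO pool 2 were above every Il10-/- array, and CO pool 2 was below 7 of the 8 Il10-/- arrays. Adipoq fell by 1.47 ± 0.24 (SE, adjusted p = 0.00106), 2.77-fold on the linear scale, from 2.20 ± 0.80 (SD, n = 8 arrays) to 0.73 ± 0.35. Without C57BL/6J CO pool 2 it fell by 1.73 ± 0.13 (adjusted p = 6.72e-06).

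Lep (leptin, the satiety hormone whose release follows fat mass) had a different profile in the mutant. Lep stood in C57BL/6J mice at 0.54 and -0.18 on CO, 0.17 and 0.44 on OA, 1.30 and 0.71 on EPA, 0.87 and 0.42 on AA. Lep in Il10-/- mice stood at -0.07 and -0.05 on CO, 0.30 and 0.03 on OA, -0.09 and -0.15 on EPA, -0.06 and -0.07 on AA. Apart from OA pool 1, the Il10-/- arrays lay close together between -0.15 and 0.03, and C57BL/6J OA pool 1 and CO pool 2 lay below that OA array. Lep fell by 0.55 ± 0.12 (adjusted p = 0.00602).

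Retn (resistin, a fat cell hormone in mice) was the gene closest to the mean of the other 9. Retn stood in C57BL/6J mice at 1.37 and -0.25 on CO, 0.76 and 1.01 on OA, 2.19 and 1.02 on EPA, 2.40 and 1.46 on AA. Retn in Il10-/- mice stood at 0.31 and -0.18 on CO, 0.12 and 0.12 on OA, 0.35 and 0.75 on EPA, 0.38 and 0.73 on AA. The 7 C57BL/6J arrays other than CO pool 2 were all above the Il10-/- arrays, by a narrow margin between C57BL/6J OA pool 1 (0.76) and Il10-/- EPA pool 2 (0.75). Retn fell by 0.92 ± 0.24 (adjusted p = 0.0183), and its 2 features gave -1.02 and -0.83.

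Lpl (lipoprotein lipase, which frees fatty acids from circulating triglyceride) showed the lowest adjusted p of the 10. Lpl stood in C57BL/6J mice at -1.05 and -2.11 on CO, -1.46 and -1.38 on OA, 0.09 and -0.79 on EPA, 0.33 and -0.83 on AA. Lpl in Il10-/- mice stood at -2.30 and -2.63 on CO, -2.28 and -2.28 on OA, -2.27 and -2.39 on EPA, -2.21 and -1.93 on AA. The mutant arrays were close together at 0.19 (SD, n = 8) against 0.81 in C57BL/6J mice, and only C57BL/6J CO pool 2 reached into their range. Lpl fell by 1.39 ± 0.19 (adjusted p = 0.000309), and its 2 features gave nearly the same difference, -1.38 and -1.39.

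Fabp4 (a fatty acid carrier of fat cells and macrophages) had 3 features that did not behave alike. The other 2 features were tied on 12 of the 16 arrays and gave -0.07 (adjusted p = 0.810) and -0.11 (adjusted p = 0.641). The remaining feature stood in C57BL/6J mice at 0.74 and -0.50 on CO, 0.36 and 0.50 on OA, 1.89 and 0.73 on EPA, 2.40 and 1.01 on AA. In Il10-/- mice the same feature stood at -0.45 and -0.59 on CO, -0.52 and -0.38 on OA, -0.27 and 0.14 on EPA, -0.02 and 0.12 on AA. Only C57BL/6J CO pool 2 fell within the Il10-/- range. The feature fell by 1.14 ± 0.23 (adjusted p = 0.00363) and the mean of the 3 features fell by 0.44 ± 0.14 (adjusted p = 0.0492). With the median of the features in place of their mean that call was lost (adjusted p = 0.655).

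Of the droplet proteins, Plin1 (perilipin 1, which coats the droplet and gates lipolysis) spread widely in C57BL/6J mice. Plin1 stood in C57BL/6J mice at 0.94 and 0.01 on CO, 0.28 and 0.73 on OA, 2.05 and 1.13 on EPA, 2.28 and 0.96 on AA. Plin1 in Il10-/- mice stood at 0.17 and -0.09 on CO, 0.09 and 0.30 on OA, 0.15 and 0.43 on EPA, 0.21 and 0.60 on AA. Both C57BL/6J CO pool 2 and OA pool 1 lay within the Il10-/- range and the other 6 above it. Plin1 fell by 0.82 ± 0.21 (adjusted p = 0.0161).

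Cidec (which fuses and enlarges lipid droplets) varied little between C57BL/6J arrays other than those of CO and OA. Cidec stood in C57BL/6J mice at 2.23 and 0.55 on CO, 1.45 and 2.03 on OA, 2.08 and 2.18 on EPA, 2.11 and 2.08 on AA. Cidec in Il10-/- mice stood at 0.45 and -0.35 on CO, 0.33 and 0.50 on OA, 0.94 and 1.06 on EPA, 0.82 and 1.31 on AA. Apart from CO pool 2, all C57BL/6J arrays were above all Il10-/- arrays, and 6 of them lay between 2.03 and 2.23. Cidec fell by 1.21 ± 0.21 (adjusted p = 0.00148).

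Lipe (hormone-sensitive lipase, which breaks down stored fat) was the 1 gene that did not pass. Lipe stood in C57BL/6J mice at 0.69 and -0.24 on CO, 0.43 and 0.32 on OA, 0.62 and 0.22 on EPA, 0.72 and 0.55 on AA. Lipe in Il10-/- mice stood between 0.0046 and 0.25. C57BL/6J CO pool 2 was the lowest of all 16 arrays, and C57BL/6J EPA pool 2 lay within the Il10-/- range. The difference was -0.32 ± 0.11 (adjusted p = 0.0783), and without C57BL/6J CO pool 2 it was -0.43 ± 0.07 (adjusted p = 0.000735). Its 2 tested features disagreed in size, with -0.45 (adjusted p = 0.0109) for one and -0.18 (adjusted p = 0.368) for the other, and a further feature had a value on 10 arrays and was not tested.

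Of the synthesis genes, Thrsp (which promotes fatty acid synthesis and responds to carbohydrate and thyroid hormone) had the largest difference of the 10. Thrsp stood in C57BL/6J mice at 0.89 and -1.32 on CO, -0.09 and 0.03 on OA, 1.38 and 0.29 on EPA, 1.59 and 0.28 on AA. Thrsp in Il10-/- mice stood at -1.26 and -1.63 on CO, -1.34 and -1.36 on OA, -0.88 and -0.67 on EPA, -1.37 and -0.70 on AA. The array C57BL/6J CO pool 2 was within the Il10-/- range and the other 7 arrays were above it, the nearest at -0.09 against -0.67. Thrsp fell by 1.53 ± 0.30 (adjusted p = 0.00337), 2.89-fold on the linear scale.

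Pck1 (the cytosolic phosphoenolpyruvate carboxykinase, which feeds glyceroneogenesis in fat and gluconeogenesis in liver and kidney) is also made in gut epithelium. Pck1 stood in C57BL/6J mice at 0.09 and -1.02 on CO, -0.56 on OA pool 2, 0.06 and -0.86 on EPA, 0.03 and -0.17 on AA. Its values on EPA pool 1 and AA pool 1 were tied values, and OA pool 1 had none. Pck1 in Il10-/- mice stood at -0.65 and -2.06 on CO, -1.55 and -2.08 on OA, -1.02 and -1.07 on EPA, -1.20 and -0.73 on AA. Both C57BL/6J CO pool 2 and EPA pool 2 lay within the Il10-/- range, and Il10-/- CO differed more between its pools (1.41) than C57BL/6J CO did (1.11). Pck1 fell by 0.92 ± 0.25 (adjusted p = 0.0231), and with tied values set to missing the difference was -0.78 (adjusted p = 0.0829).

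For 0 of the 10 genes did all 8 Il10-/- arrays lie below all 8 C57BL/6J arrays, which was so for 1.8% of all genes. Leaving out C57BL/6J CO pool 2, this held for 6 of the 10 (Adipoq, Lpl, Thrsp, Retn, Cidec and Fabp4) and for 2.53% of all genes. The same omission brought the count of lower genes to 10 of 10, beside 11% of all genes.

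The genotype difference was below 0 for all 10 genes on each diet, but with 2 arrays a group few passed the test. Of all genes, 52.7% were below 0 on CO, 54.4% on OA, 49.6% on EPA and 52.5% on AA. On CO, 0 of 10 passed (8.57% of all genes either way, 3.48% lower, 5.09% higher), with Cidec nearest at an adjusted p of 0.0691. An unadjusted p under 0.05 was found on CO for 3 of the 10 and for 6134 of all 25892. On OA, 0 of 10 passed (5.06% either way, 2.13% lower, 2.92% higher), with Cidec again nearest at 0.104. The unadjusted p on OA was under 0.05 for 5 of the 10 and for 4042 of all 25892. On EPA, Lpl fell by 1.98 ± 0.38 (adjusted p = 0.0256) and Lep fell by 1.13 ± 0.24 (adjusted p = 0.0359), so 2 of 10 were lower, beside 0.433% of all genes (1.63% either way). On AA, Lpl fell by 1.82 ± 0.38 (adjusted p = 0.0408), 1 of 10 beside 0.421% (1.32% either way). The AA call was lost on leaving out any of 11 single arrays, those of other diets among them, and the EPA count fell to 0 without C57BL/6J EPA pool 1 or either Il10-/- EPA pool. The Adipoq difference was -1.19 on CO, -1.24 on OA, -1.88 on EPA and -1.56 on AA, each ± 0.48.

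Without C57BL/6J CO pool 2, 5 genes were lower on CO (5.31% of all genes), among them Adipoq at -2.22 ± 0.30 (adjusted p = 0.00193), Thrsp at -2.33 ± 0.50 and Cidec at -2.18 ± 0.30. The counts on the other diets, which share the estimate of the spread, were then 2 on OA (3.16%), 4 on EPA (0.881%) and 4 on AA (0.885%). C57BL/6J CO is then 1 array, assumed to vary like the other groups. A difference of the genotype effect between diets was not detected, with 0 of 10 genes (0% of all genes) called in the interaction test by limma. Lep was nearest (adjusted p = 0.728). In that test 1 of the 10 had an unadjusted p under 0.05, as did 1728 of all 25892. The plot of genotype differences sets the estimates with and without the array side by side.

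**Figure D2:**
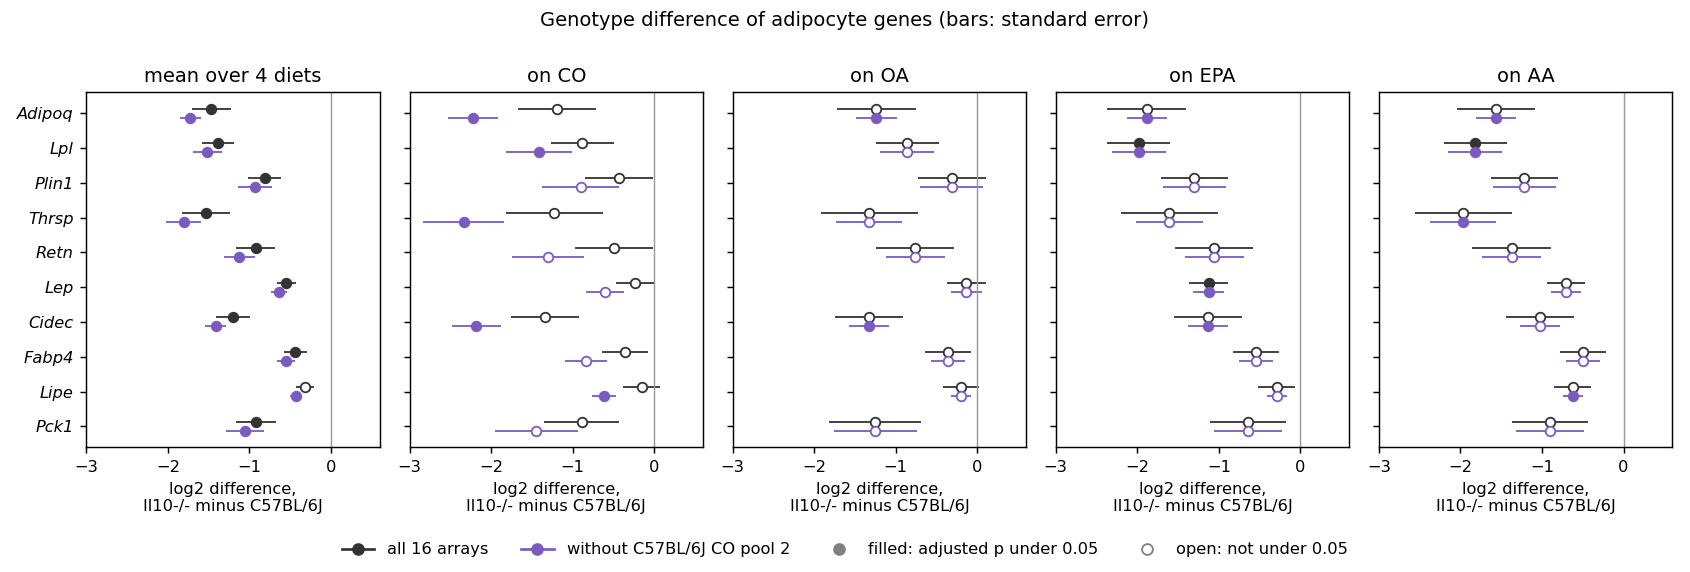
Log2 difference, Il10-/- minus C57BL/6J, with its standard error (horizontal bars) for the 10 adipocyte genes, averaged over 4 diets and on each diet. Black is the fit to 16 arrays and violet the fit without C57BL/6J CO pool 2, and filled points have an adjusted p under 0.05. All black points lie left of 0, and the violet points are shifted from them only in the panels for the mean over diets and for CO.

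No diet difference of these genes passed the test in either genotype. In C57BL/6J mice the 10 genes had higher means on EPA and AA than on CO and OA. Of all genes, 50.8% had lower means. The median difference was 0.76 for the 10 against -0.002 over all genes, and 0 of 10 passed the test (0.0193% of all genes did). Of the 10, 7 had an unadjusted p under 0.05, as did 2007 of all 25892. Lpl differed by 1.20 ± 0.27 (adjusted p = 0.258), Plin1 by 1.11 ± 0.29 (adjusted p = 0.328) and Adipoq by 0.93 ± 0.34 (adjusted p = 0.534). For Lpl and Plin1 all 4 EPA and AA arrays lay above all 4 CO and OA arrays, as they did for 2.07% of all genes. Lpl ranged from -0.83 to 0.33 on EPA and AA and from -2.11 to -1.05 on CO and OA, while for Plin1 the gap was 0.96 against 0.94.

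Macrophage genes, whose cells also use Lpl and Fabp4, moved with the same split in C57BL/6J mice. Their list mean in C57BL/6J mice was 0.18 and 0.26 on EPA and 0.55 and 0.29 on AA, against -0.27 and -0.11 on CO and -0.17 and -0.22 on OA, with no overlap. In Il10-/- mice the list mean was 0.47 and 0.54 on EPA and 0.55 and 0.53 on AA. On CO it was 0.38 and 0.54 and on OA 0.65 and 0.78, so the sets overlapped. The part of macrophage genes in the diet differences was not tested.

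This comparison turned on the CO pools. Without C57BL/6J CO pool 2 the Adipoq difference shrank to 0.42 ± 0.20 and the Lpl difference to 0.93 ± 0.26, with 0 of 10 called (0.0234% of all genes higher). Without CO pool 1, which leaves pool 2 to stand for CO, 9 of 10 were called higher (0.641% of all genes), Adipoq by 1.45 ± 0.20 and Lpl by 1.47 ± 0.26. Without AA pool 2, 1 of 10 was called (0.195% of all genes). The comparison of EPA with OA, which leaves CO out, gave 1.07 ± 0.38 for Lpl, 1.08 ± 0.41 for Plin1, 0.70 ± 0.24 for Lep and 0.72 ± 0.48 for Adipoq, with 0 of 10 called (0% of all genes). AA against OA, which shares the OA arrays, gave 1.17 ± 0.38, 1.11 ± 0.41, 0.34 ± 0.24 and 0.63 ± 0.48 for the same genes, again with 0 of 10 called (0% of all genes). In each comparison 3 of the 10 had an unadjusted p under 0.05. Among all 25892 this was so for 1539 with EPA against OA and for 866 with AA against OA. OA against CO was above 0 for 9 of 10 genes, with none called (0.0154% of all genes), and below 0 for 49.8% of all genes. Without C57BL/6J CO pool 2 it was below 0 for 10 of 10. The test for any diet difference called 0 of 10 in C57BL/6J mice (0.00772% of all genes), with Lpl nearest (adjusted p = 0.409). Its unadjusted p was under 0.05 for 3 of the 10 and for 2082 of all 25892.

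In Il10-/- mice 8 of the 10 genes had higher means on EPA and AA, with a median difference of 0.40. Of all genes, 47.8% had lower means. The test called 0 of 10 (0.0811% of all genes either way, 0.0618% higher). An unadjusted p under 0.05 was found for 1 of the 10 and for 2333 of all 25892. Cidec differed most, by 0.80 ± 0.29 (adjusted p = 0.423), from 0.23 ± 0.39 (SD, n = 4) on CO and OA to 1.03 ± 0.21 on EPA and AA. Against OA alone, EPA means were higher for 7 of 10 genes and AA means for 8 of 10, with 0 of 10 called (0% and 0.00386% of all genes). Of all genes, 47.6% had a lower EPA mean and 49.5% a lower AA mean than on OA. In both, 0 of the 10 had an unadjusted p under 0.05, beside 1106 and 1852 of all 25892. The test for any diet difference also called 0 of 10 (0.00386% of all genes), with 0 at an unadjusted p under 0.05 beside 1257 of all 25892. For Cidec, Retn and Fabp4 the 2 sets of arrays did not overlap, as for 5.07% of all genes. The difference between genotypes of the effect of EPA and AA against CO and OA was not called for any of the 10 (0% of all genes). Lep was at -0.73 ± 0.24 (adjusted p = 0.380) and Lpl at -1.03 ± 0.38 (adjusted p = 0.481). These were 2 of the 10 at an unadjusted p under 0.05, beside 2200 of all 25892. Without C57BL/6J CO pool 2 the values were -0.55 for Lep and -0.76 for Lpl. For Adipoq the same difference went from -0.51 to 0.0043 and for Cidec from 0.25 to 0.67. By group mean, Adipoq ran from C57BL/6J EPA (2.71 ± 0.53, SD, n = 2 here) through C57BL/6J AA (2.62 ± 0.09), OA (1.99 ± 0.33) and CO (1.47 ± 1.45) to Il10-/- AA (1.05 ± 0.25), EPA (0.82 ± 0.21), OA (0.75 ± 0.0038) and CO (0.28 ± 0.36). Neighbours in this order differed by less than the larger SD of each pair, except C57BL/6J AA and OA and Il10-/- OA and CO, and those contrasts did not pass the test (adjusted p = 1.00 in both).

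The spread between the pools of a group was itself a feature of these genes. Their residual SD ran from 0.26 (Lipe) to 0.73 (Thrsp) with a median of 0.50, against a median of 0.13 over all genes. Of the 10, 8 were among the top 5% of all genes, above 0.29, and the other 2, Lep and Lipe, lay at percentiles 93.7 and 92.7. Spread was larger in C57BL/6J than in Il10-/- mice for 10 of 10 genes, with a median pooled SD of 0.63 against 0.24, where 67.9% of all genes had the larger spread in C57BL/6J mice (medians 0.13 and 0.10). With CO left out of C57BL/6J alone, its median was 0.42 for the 10 genes and 0.11 for all genes, while the Il10-/- values keep CO. In C57BL/6J mice pool 1 exceeded pool 2 for 10 of 10 genes on CO (median gap 1.09) and on AA (0.48), and for 9 of 10 on EPA (0.82), whereas on OA it did so for 2 of 9 (-0.25). In Il10-/- mice pool 1 was higher for 9 of 10 genes on CO (0.43) and 6 of 10 on OA (0.0046). It was higher for 4 of 10 on EPA (-0.11) and 2 of 10 on AA (-0.34). C57BL/6J AA pool 1 gave the highest value for 6 genes, and EPA pool 1 and CO pool 1 for 2 each. The labels give the pool numbers no meaning.

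**Figure D3:**
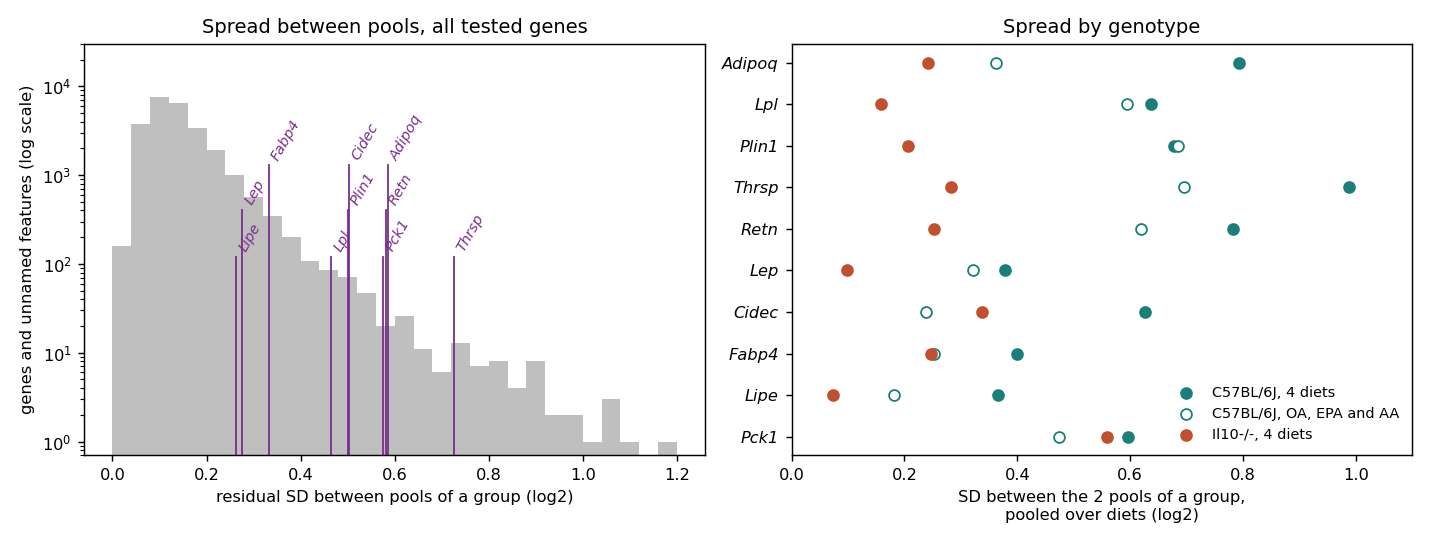
Left, residual SD between pools of a group (log2, horizontal axis) for all tested genes as a grey histogram with a log vertical axis, whose last bin holds all larger values, with violet lines for the 10 adipocyte genes at 0.26 to 0.73. Right, SD between the 2 pools of a group pooled over diets, for C57BL/6J on 4 diets (green, filled), C57BL/6J without CO (green, open) and Il10-/- (orange). The filled green point lies right of the orange one for all 10 genes.

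The 10 genes varied together from array to array. After the mean of each genotype was subtracted, the correlation of each gene with the mean of the other 9 over 16 arrays was 0.98 for Retn, 0.96 for Thrsp, 0.95 for Fabp4, 0.93 for Adipoq and 0.90 for Lpl. It was 0.88 for Plin1, 0.78 for Cidec and Lipe, 0.74 for Lep and 0.66 for Pck1 (15 arrays). Within Il10-/- mice Lep (-0.32) and Lipe (-0.12) did not follow the others, while the remaining 8 stayed between 0.68 and 0.95. These values describe arrays that share pools, genotype and diet, and carry no test.

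By the same measure the 10 genes outside the set most like its mean, of 16429 named genes with a value on every array, were Car3 (0.97), Cyp2e1 (0.94), Mmd, Aoc3 and Angptl4 (0.93 each), Slc7a10 and Phf21a (0.92 each), and Cd36, Chst1 and Plin4 (0.91 each). The median correlation of all genes was 0.02. Car3 encodes a carbonic anhydrase abundant in fat and muscle, Aoc3 an amine oxidase of fat cells and vessels, Angptl4 an inhibitor of lipoprotein lipase, Cd36 a fatty acid transporter and Plin4 a droplet coat protein. Of these 10, 9 were lower in Il10-/- mice, for example Cyp2e1 at -1.40 ± 0.32 (adjusted p = 0.00855) and Aoc3 at -1.20 ± 0.15 (adjusted p = 0.000143), and Phf21a was not called (-0.10 ± 0.05, adjusted p = 0.191). Of the 10, 5 stayed among the top 10 without C57BL/6J CO pool 2.

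Thrsp, as the lipogenic gene, was set against Adipoq, as the gene restricted to fat cells, on each array. The difference Thrsp minus Adipoq was -1.81 ± 0.37 (SD, n = 8) in C57BL/6J and -1.88 ± 0.26 in Il10-/- mice, ranging from -2.27 to -1.09 and from -2.25 to -1.56. The values of the genotypes overlapped. Their difference of -0.06 was smaller than the spread (exact permutation test within diets, two-sided, p = 0.796, where the smallest p of its 1296 arrangements is 0.00154). On the low C57BL/6J CO pool 2 the difference was -1.77, close to -1.61 on CO pool 1, although Thrsp itself was 2.22 lower there. The same difference was not tested for the other genes. Lpl minus Adipoq was -3.10 ± 0.45 in C57BL/6J and -3.01 ± 0.21 in Il10-/- mice. Lep minus Adipoq was -1.66 ± 0.45 in C57BL/6J and -0.74 ± 0.39 in Il10-/- mice, Fabp4 minus Adipoq -1.93 ± 0.43 and -0.90 ± 0.13, and Lipe minus Adipoq -1.78 ± 0.55 and -0.63 ± 0.37. For these 3 genes the genotypes overlapped on C57BL/6J CO pool 2 alone. For Fabp4 this rests on the mean of its 3 features, 2 of which were tied on 12 of the 16 arrays. The remaining Fabp4 feature fell by 1.14, against 1.47 for Adipoq, and was not set against Adipoq array by array. For Plin1, Retn, Pck1 and Cidec the Il10-/- mean was higher by 0.65, 0.55, 0.58 and 0.26, with overlap. Each value is relative to the reference RNA, so only its change between arrays can be read.

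**Figure D4:**
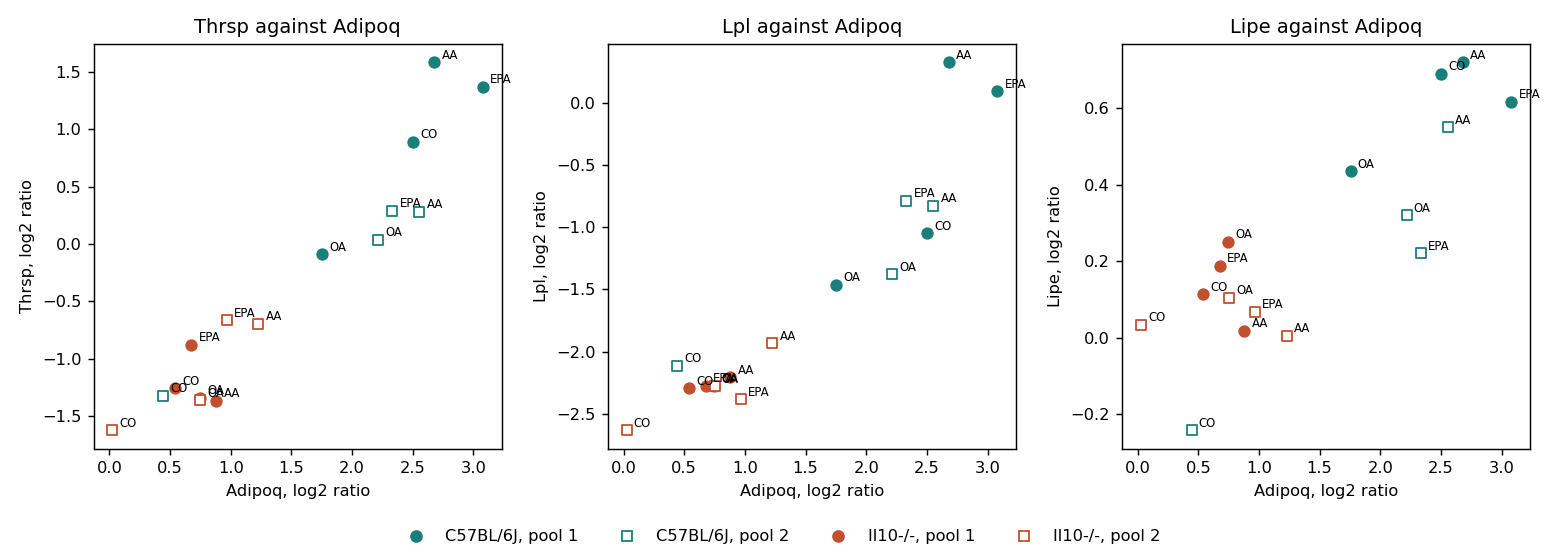
Log2 ratios of Thrsp, Lpl and Lipe (vertical axes) against Adipoq (horizontal axis) on the 16 arrays, labelled by diet, with C57BL/6J in green, Il10-/- in orange, pool 1 filled and pool 2 open. In all 3 panels the green CO square (Adipoq 0.44) lies left of and below the other 7 C57BL/6J arrays.

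Further genes of fat cells and of the pathways around these 10 were taken as lists, which share some genes. Their counts stand beside 8.12% of all genes lower and 9.14% higher. Of 21 other fat cell genes tested, 16 were lower and 0 higher in Il10-/- mice, with a median of -0.48. Plin4 was at -1.45 ± 0.17, Cd36 at -1.44 ± 0.19, Car3 (tied on 3 arrays) at -1.42 ± 0.22 and Slc2a4, the insulin-responsive glucose carrier, at -1.31 ± 0.14. The marker Adig was not called (0.02 ± 0.04, adjusted p = 0.814), and Cfd, Trarp1 and Adrb3 were not tested. Without C57BL/6J CO pool 2 the count was 19 of 21, beside 11% of all genes.

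Among lipogenesis genes 12 of 18 were lower and 0 higher, with a median of -0.29. Scd1, the stearoyl-CoA desaturase, was at -1.11 ± 0.31, Mlxipl, a carbohydrate-responsive activator of lipogenesis, at -0.73 ± 0.09, Pnpla3 at -0.71 ± 0.14 and malic enzyme Me1 at -0.70 ± 0.16. Some central genes of fatty acid synthesis were not called, with Acly at -0.07 ± 0.06 (adjusted p = 0.489), Acaca at -0.06 ± 0.04 (adjusted p = 0.299) and the regulator Srebf1 at -0.06 ± 0.08 (adjusted p = 0.718). Fasn, the fatty acid synthase, fell by 0.23 ± 0.06, with features tied on up to 15 arrays.

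Of 7 lipolysis genes 4 were lower, led by the lipase Ces1d (-1.83 ± 0.17) and the monoglyceride lipase Mgll (-0.97 ± 0.09). Pnpla2, the main triglyceride lipase of fat, tied on 4 arrays, was not called (-0.29 ± 0.14, adjusted p = 0.205). Of 9 partners of lipoprotein lipase 3 were lower. These were Cd36, Angptl4 (-0.74 ± 0.21) and Gpihbp1, which holds the enzyme on capillaries (-0.21 ± 0.06), and the activator Apoc2 did not pass (-0.35 ± 0.13, adjusted p = 0.0815). Beside Pck1, 2 of 7 genes of gluconeogenesis and glyceroneogenesis were lower. They were Gpd1, which makes glycerol phosphate and is tied on 1 array (-0.64 ± 0.13), and the pyruvate carboxylase gene Pcx (-0.54 ± 0.13), while Fbp1 was at -0.56 ± 0.20 (adjusted p = 0.0725).

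Relatives and receptors of the 10 did not move as one. In the perilipin and CIDE families 3 of 6 were lower (Plin4, Cidea at -0.46 ± 0.06 and Plin2, tied on 1 array, at -0.38 ± 0.10). Of 6 other fatty acid binding proteins 3 were lower, Fabp6 of the ileum at -1.07 ± 0.33, Fabp3 at -0.34 ± 0.08 and Fabp2, tied on 15 arrays, at -0.52 ± 0.10. In the resistin family Retnla fell by 0.87 ± 0.12 and Retnlg, a neutrophil gene, rose by 0.81 ± 0.11, while Retnlb, tied on 13 arrays, was not called (adjusted p = 0.673). Of 5 adipokine receptors Cdh13, which binds adiponectin, fell by 0.38 ± 0.05 and Adipor2, tied on up to 8 arrays, fell by 0.22 ± 0.05. Tlr4 rose by 0.75 ± 0.10, and the leptin receptor Lepr was at 0.07 ± 0.05 (adjusted p = 0.481).

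Transcription factors of fat cells divided. Cebpd (1.11 ± 0.12) and Cebpb (0.57 ± 0.08), which are also induced by inflammatory cytokines, rose, whereas Pparg, the master regulator of fat cells that is also abundant in colon epithelium, fell by 0.26 ± 0.06. The other 8 of 11 were not called, among them Zfp423 (-0.44 ± 0.35, adjusted p = 0.459) and Cebpa (-0.21 ± 0.08, adjusted p = 0.120).

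Lists of other tissues that a colon sample could hold were counted in the same way, with no test of a list. Of 8 smooth muscle genes 5 were lower and 0 higher, with a median of -0.39. Their list mean ran from 0.15 to 0.61 on C57BL/6J arrays and from -0.10 to 0.21 on Il10-/- arrays, with Des at -0.74 ± 0.22 and Myh11 at -0.68 ± 0.10. Of 8 endothelial genes 4 were lower (median -0.22, list mean -0.69 to -0.33 against -0.90 to -0.68), led by Emcn (-0.65 ± 0.07) and Kdr (-0.59 ± 0.05). Of 8 genes of the mesothelium, which lines the serosa, 2 were lower (median -0.14, list mean -0.54 to -0.35 against -0.64 to -0.52), Upk3b at -0.34 ± 0.07 and Gpm6a at -0.24 ± 0.06. The 10 adipocyte genes had a list mean of -0.47 to 1.38 on C57BL/6J and -0.78 to 0.05 on Il10-/- arrays.

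Brown fat genes were split at 4 lower and 1 higher of 8, with Cox7a1 at -1.18 ± 0.09, Cox8b at -0.59 ± 0.09 and Dio2 at 0.25 ± 0.05, and Ucp1, their defining marker, was not tested. Fat stroma genes were split at 3 lower and 3 higher of 7, with Cd34 at -0.61 ± 0.08 and Thy1 at 0.44 ± 0.06. Among macrophage genes 6 of 8 were higher and 1 lower (median 0.59, list mean -0.27 to 0.55 against 0.38 to 0.78), with Aif1 at 1.28 ± 0.08 and C1qa at 0.79 ± 0.06. Of 6 lymph node and B cell genes 3 were higher (list mean -0.39 to -0.0047 against -0.00017 to 0.47), with Cxcl13 at 0.90 ± 0.15. Pancreas genes had 2 of 7 lower (list mean -1.81 to -1.23 against -2.05 to -1.77), with Clps at -1.08 ± 0.21. Skeletal muscle genes had 2 of 6 lower (list mean -2.24 to -1.65 against -2.55 to -1.75), with Acta1 at -0.61 ± 0.16, and colon epithelium genes 1 of the 4 that are not tied, Slc26a3 at -0.65 ± 0.14. The part of these tissues in the differences of the 10 adipocyte genes was not tested.

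**Figure D5:**
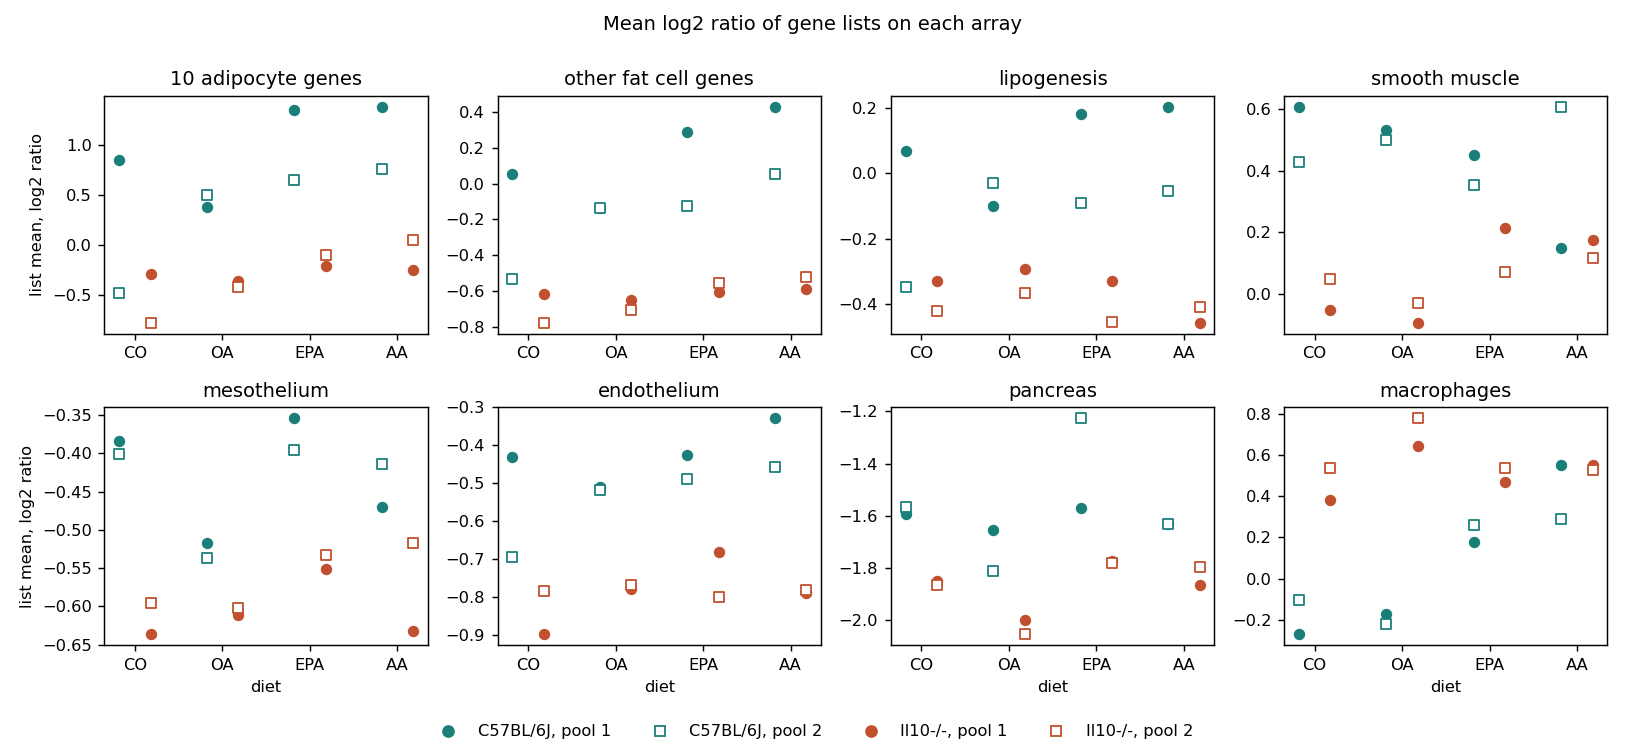
Mean log2 ratio (vertical axis, a separate scale for each list) of 8 gene lists on the 16 arrays by diet, with C57BL/6J in green, Il10-/- in orange, pool 1 as filled circles and pool 2 as open squares. C57BL/6J CO pool 2 lies with the Il10-/- arrays for the 10 adipocyte genes (-0.47), other fat cell genes (-0.53), lipogenesis (-0.35) and endothelium (-0.69). It lies with the other C57BL/6J arrays for smooth muscle (0.43) and mesothelium (-0.40).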

How the data were processed

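Total RNA of colon pools (Cy3) was compared with a common reference RNA (Cy5) on 16 two-colour Agilent arrays. The values are the authors' deposited log ratios, taken as log2 because the submitters' processing notes name limma, whose ratios have that base; no source used here states the base, background correction or normalization. Kidney and liver genes far below 0 set the direction as colon over reference. No dye swap is named, and the number of arrays limits precision.

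Features with 1 gene symbol were averaged per gene, features without a value in some group were left out, which left 25892 genes and unnamed features. The model (limma 3.58.1, R 4.3.3) was fitted as 8 group means over 16 arrays with 8 residual and 4.07 prior degrees of freedom. Of 32042 features with 1 symbol, 31906 matched RefSeq by gene ID. The Benjamini-Hochberg adjustment ran over all tests, and called means an adjusted p under 0.05. The fit was tested on simulated data.

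The 10 genes and all lists were chosen with earlier results of these data known. Named genes were the 10 themselves, up to 4 genes a list with the largest genotype difference, and the 10 genes most correlated with their mean. Fasn, Acly, Acaca, Srebf1, Adig, Lepr, Cebpa and Dio2 were named after their values were seen. Alternatives covered normalization, array weights, averaging of features, tied and missing values, the groups fitted, the conflicting label, the replicate block and each array left out.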

Additional observations from a re-analysis of the deposited data

Results flagged for a closer look

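Among 20 sets of arrays, 1 for each gene and genotype (8 arrays each, and 7 for Pck1 in C57BL/6J mice), 4 had an array whose gap to its nearest neighbour was too large a share of the range by Dixon's criterion. For independent sets from 1 population chance gives about 5%. These sets span 4 diets and hold genes that varied together, so the count cannot be judged against that rate. Cidec was lowest on C57BL/6J CO pool 2, at 0.55. Fabp4 was lowest on the same array, at -0.63, and in Il10-/- mice on CO pool 2, at -0.86. In C57BL/6J mice it passed narrowly, with a gap of 0.527 of the range against a limit of 0.526. On both arrays the 2 Fabp4 features that are tied on 12 of the 16 arrays were untied and low, at -0.81 and -0.58 in C57BL/6J and -0.93 and -1.05 in Il10-/- mice. The remaining Fabp4 feature was at -0.50 and -0.59 on these arrays and was not checked alone. Lep was highest among Il10-/- arrays on OA pool 1, at 0.30, the array whose labels name both OA and EPA.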

How the results depend on the processing

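The 10 genes' genotype differences were below 0 in all 278 alternatives run for single genes. In 251 the side of the threshold was kept, in 20 a call was lost and in 7 one was gained. Losses were in Fabp4 (adjusted p = 0.655 with the median of features, 0.0511 without the filter on missing values, 0.0550 with Il10-/- OA pool 1 counted as EPA, 0.0893 without that array) and Pck1 (0.0829 with tied values missing), and gains in Lipe. Fabp4 also lost its call without any of 12 single arrays (adjusted p up to 0.118), and Pck1 without C57BL/6J EPA pool 1, Il10-/- AA pool 1 or Il10-/- OA pool 2 (0.0522 to 0.0580). The cause was not tested.

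Leaving out single arrays changed the number of genes called, over diets and on each diet. The genotype difference over diets then ran from -1.81 to -1.25 for Thrsp, from -1.73 to -1.21 for Adipoq and from -0.43 to -0.20 for Lipe. For diets in C57BL/6J mice it gave 0 to 9 genes for EPA and AA against CO and OA, 0 to 3 for OA against CO and 0 to 4 for any diet difference. Array weights gave 3 genes on OA (10.9% of all genes called) and 3 on AA (2.53%). Fitting only the groups compared gave 7 on OA (8.82%) and 1 on EPA (0.375%), quantile normalization 1 on EPA (1.46%), and leaving out Il10-/- OA pool 1 for its conflicting label 1 on EPA (1.23%) and 0 on AA. Thrsp minus Adipoq turned to 0.019 (exact permutation p = 0.927) with quantile normalization and to 0.085 (p = 0.372) without C57BL/6J AA pool 1, with a range of -0.21 to 0.085 over single arrays left out. Fits of only the groups compared gave no value for contrasts over all 8 groups.

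Pool numbers were not taken to pair the samples, and the labels give them no meaning. Deviations of same-numbered arrays correlated from -0.36 to 0.40 over 28 pairs, 12 of them over 0.1 and 7 under -0.1. These values do not settle whether the pool number matters. Some lists differed one way, with the means of gluconeogenesis and of fat cell transcription factors higher in pool 1 in 8 of 8 groups. Lipoprotein lipase partners and skeletal muscle were higher in pool 1 in 7 of 8, the resistin family in 1 of 8 and the 10 adipocyte genes in 5 of 8. With the replicate block Lipe was also called lower over diets (-0.32, adjusted p = 0.0328, limma), and the other genes stayed called. The counts on single diets were the same as without the block. The share of all genes called with the block is not given here.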
